A study of Homo sapiens with 9 samples.

Results

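Processed pseudogenes are copies of a messenger RNA that was reverse transcribed and inserted elsewhere in the genome, so they usually lack introns and a promoter of their own. Ribosomal protein genes are the largest source of such copies in the human genome, because their short messenger RNAs are abundant in the cells that pass the genome on. Copies that still resemble their parent gene can share sequencing reads with it. RNA-seq read counts on these copies were followed in RIVA, an established human lymphoma line of the ABC-DLBCL type (diffuse large B-cell lymphoma with an activated B-cell profile). Members were selected on these counts. They were the rows annotated as processed pseudogenes whose symbol names a ribosomal protein parent (RPL or RPS, with a P and a number) and that had at least 10 raw counts in each of the 6 vector and S136X libraries. This gave 54 members of 60656 genes in the table, out of 1175 ribosomal protein processed pseudogenes by symbol. Of the rest, 614 had 0 counts in all 9 libraries and 507 had some counts but stayed under the floor.

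RIVA cells carried a doxycycline-inducible lentiviral construct (plvx-Tetone) that was empty (vector) or encoded BCL10 S136X, a truncation, or BCL10 R58Q, a missense change. BCL10 is an adaptor protein in a complex with MALT1 that activates NF-kB. All 3 groups received doxycycline for 24 h, at 200 ng/mL by the treatment notes and 200 ng/uL by the sample characteristics, and each had 3 RNA-seq libraries. The cells keep their own BCL10 gene, and BCL10 counts, which include the construct's, were 885 to 1268 in the vector libraries and 9838 to 14293 in the mutant libraries. The data columns of the R58Q libraries carry a later date in their names than those of the vector and S136X libraries, so R58Q and that date cannot be told apart in any comparison below. Total counts were 28047713 to 33122267 per library. The 7 B-cell markers were all detected, and the summed myeloid markers were at 0.298 to 0.578 CPM (counts scaled to the library total) over all libraries. The summed epithelial markers were at 40.7 to 71.7 CPM and overlapped between the groups, as did the T-cell markers at 2.77 to 6.94 CPM. The 3 fibroblast markers (COL1A1, COL1A2, PDGFRB) summed to 6.18 to 9.39 CPM in vector, 12.1 to 18.5 in S136X and 12.7 to 18.6 in R58Q, so vector did not overlap with either mutant group. Their part in the comparisons with vector was not tested.

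The members were copies of 39 parent genes, all of them genes of the cytosolic ribosome. Of the members, 34 derived from large-subunit and 20 from small-subunit proteins. They are not independent of each other, since RPS2 and RPS3A had 4 members each, RPL7 had 3, and another 7 parents had 2. All 54 matched a GENCODE release 29 transcript (GRCh38) with the same start and end, on 20 chromosomes, and 1 lay on the chromosome of its parent. By position, 26 lay between genes, 14 overlapped a gene on the other strand, 13 lay in an intron of a gene on the same strand and 1, RPL10P16, overlapped an exon of AC010422.3 on its strand. Median identity to the parent's transcript was 98.4% (81.6% to 100%). The parental start codon was kept in 49 members, and 23 kept a reading frame of exactly the parent's number of codons, here called full. Longer frames, such as those of RPS15P4 (148 codons against 145) and RPS19P3 (146 against 145), were not counted as full. Whether reads were counted by strand is not given in the sources used here, so counts on the 14 members opposite another gene, such as RPS2P5 within TAOK3, may include reads of that gene. Whatever the strand setting, counts on RPL10P16 and on the 13 members in a same-strand intron may include reads of the gene they overlap.

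The stretches printed here are from the members and parents on which the comparisons turn. Each is the 100-base stretch of the parent's coding sequence, free of gaps in the copies shown, with the most differing bases. Capitals mark the bases at which a copy differs from its parent, and in the parent the bases at which any copy shown differs.

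RPS3A is a small-subunit protein whose copies moved in opposite directions. The stretches lie at chr15:59768396-59768495 (RPS3AP6, plus strand), chr5:111192899-111192998 (RPS3AP21, minus strand), chr7:98386441-98386540 (RPS3AP26, minus strand) and chr15:43116350-43116449 (RPS3AP47, minus strand). RPS3AP6 is identical to RPS3A here, RPS3AP26 differs at 1 base, RPS3AP21 at 3 and RPS3AP47 at 7.
RPS3A: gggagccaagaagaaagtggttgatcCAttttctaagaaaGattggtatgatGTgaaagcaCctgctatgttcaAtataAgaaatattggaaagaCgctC
RPS3AP6: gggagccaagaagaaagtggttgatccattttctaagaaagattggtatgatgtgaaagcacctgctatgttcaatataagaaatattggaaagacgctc
RPS3AP21: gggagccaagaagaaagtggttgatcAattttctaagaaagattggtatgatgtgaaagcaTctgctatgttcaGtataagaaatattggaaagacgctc
RPS3AP26: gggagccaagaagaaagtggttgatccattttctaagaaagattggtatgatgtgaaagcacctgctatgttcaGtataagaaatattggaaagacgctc
RPS3AP47: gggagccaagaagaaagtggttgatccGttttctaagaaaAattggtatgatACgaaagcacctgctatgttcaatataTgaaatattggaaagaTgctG

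RPL5P34 (chr22:42777128-42777227, minus strand) is shown because its call as lower in R58Q against vector held in every fit of that comparison. RPL5 binds the 5S ribosomal RNA. RPL5P34 differs from its parent at 8 bases of the stretch.
RPL5: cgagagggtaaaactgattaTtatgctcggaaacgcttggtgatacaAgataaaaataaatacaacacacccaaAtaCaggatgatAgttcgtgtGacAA
RPL5P34: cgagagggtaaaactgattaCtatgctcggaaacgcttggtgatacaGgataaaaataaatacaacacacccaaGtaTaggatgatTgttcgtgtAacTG

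RPL39 lines the tunnel through which the new protein leaves the ribosome, and RPL41 is the shortest ribosomal protein, with 25 codons. RPL39P3 (first 100 coding bases, chr6:73373164-73373263, minus strand) and RPL41P5 (whole, 78 bases, chr12:93083598-93083675, minus strand) are identical to their parents, so no capitals appear.
RPL39P3: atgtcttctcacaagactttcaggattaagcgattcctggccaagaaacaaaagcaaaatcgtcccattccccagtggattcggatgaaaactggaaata
RPL41P5: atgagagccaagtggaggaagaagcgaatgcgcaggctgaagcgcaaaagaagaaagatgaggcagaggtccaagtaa

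How far reads of 100 bases, the study's read length, could be assigned to a member was read from the annotation. Every 100-base window of a member was searched for, as an exact match, in the annotated transcripts of all other genes. A median of 19.3% of a member's windows occurred in another gene. In 13 members no window did, and in 12 members over 50% did. Near matches were not counted. Within these 13, windows with at most 2 bases that differed from the parent made up 0% in RPL18P13 to 78.1% in RPS15AP1. Whether reads of the parent were assigned to such copies was not tested. RPL39P3 and RPS28P7 had no window of their own, since all of their windows occur in the parent. RPL4P5 had the most windows found nowhere else, 1109. For RPL35P2, 87.1% of windows occurred elsewhere but only 6.82% in RPL35, and most of the rest lay in AL354740.1 on the other strand at the same place. RPL41P5 is shorter than a window. Copies that the annotation leaves out were not searched.

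The members took few reads. Summed over the 54, they held 7162 to 9259 counts per library, against 804725 to 990381 on the 39 parents. RPS2P5, a copy of the small-subunit gene RPS2, alone held 41.1% of all member counts, the top 3 held 59.4% and the top 10 held 73.5%. Mean level over the 9 libraries was 1 CPM or more for 33 members and under 1 CPM for 21. Per length, RPS2P5 was at 120.5 CPM per kilobase against 1331 for RPS2, RPL13AP5 at 39.9 against 1849 for RPL13A, and RPLP0P6 at 23.7 against 1292 for RPLP0, the stalk protein of the large subunit. The other members among the 10 with the highest mean CPM included RPL4P4, RPL14P1, RPL23AP42, RPL13P12, RPL13AP25 and RPL7AP6, of which RPL4P4 was the highest at 5.74 CPM.

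A member's reads were a median of 0.330% of its parent's (0.0454% to 8.07%), without correction for length. The lowest shares were in RPL4P5, RPL7P23, RPL10P9, RPL23P8 and RPS2P36, at 0.0454% to 0.0645%. The highest were RPS2P5 at 8.07%, RPL39P3 at 5.39%, RPL26P19 at 4.88%, RPS15AP1 at 2.81% and RPL22P2 at 2.62%. For the latter 4 the parent itself was counted low. RPL39, RPL26, RPS15A and RPL22 stayed at or under 1359 counts in every library, while the median over the 79 ribosomal protein genes was 16270 counts. In RPL26, 60.6% of 100-base windows also occurred in another gene, mostly AC135178.2, and in RPS15A 29.1%. The part of shared sequence in these low counts was not tested.

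The S136X and vector libraries were used to choose the members, so their comparison is a description. The floor had to be met in every library of both groups, so a copy under it in any of them was left out beforehand. The values below therefore cannot show whether counts on such copies change with S136X. By edgeR's quasi-likelihood test, 0 of 54 passed the call (adjusted p under 0.05 and at least 1.5-fold), 0 had an unadjusted p under 0.05, and DESeq2 and limma-voom also called 0. Of all 15530 genes tested, 3.87% passed, also a low share, and the difference from the members was not tested. The members' median log2 fold change was 0.09, beside 0.07 for their parents and -0.02 for all genes. RPS2P5 had 3583, 3058 and 3204 counts in vector and 3314, 3342 and 2789 in S136X. RPL13AP5, a copy of the large-subunit gene RPL13A, had 1029, 796 and 937 counts in vector and 855, 885 and 782 in S136X. Both groups overlapped for these members. The lowest and the highest log2 fold changes were -0.59 for RPS3AP21 and 0.71 for RPL23P8.

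The R58Q libraries were not used by the rule, but the vector libraries were. The floor of 10 counts held for vector and not for R58Q, so a member low in R58Q could stay in and a member low in vector could not. This touches low members most, and counts and medians are given with other floors beside them. RPL23P8, a copy of the large-subunit gene RPL23, had 12, 12 and 10 counts in vector and 3, 7 and 5 in R58Q and was removed by the filter on low counts, which left 53 members tested.

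In R58Q most members were lower than in vector while most of their parents were not. Of 53 members, 18 fell and 3 rose (edgeR's quasi-likelihood test, adjusted p under 0.05 and at least 1.5-fold). Of all genes tested, 3.54% were called lower and 4.09% higher. The members' median log2 fold change was -0.57, against 0.16 for the 39 parents and -0.03 for all genes. Of the parents, RPL39 was called lower and RPL17 higher. Of all 79 cytosolic ribosomal protein genes, 70 were above 0, and their median was 0.23. In the lower direction 1 of the 79, RPL39, had an adjusted p under 0.05 (edgeR), against 8.76% of all genes. In the higher direction 35 of the 79 had an adjusted p under 0.05 at any fold (edgeR). The share of all genes in that direction at any fold is not given here. Of the 53 members, 44 were below 0, against 53.6% of all genes. In 31 of 53 members all 3 R58Q libraries were below all 3 vector libraries, which held for 19.5% of all genes. The 290 processed pseudogenes of other families with the same floor also tended lower, with a median of -0.42 and with 49 lower and 4 higher calls among 289 tested. The difference between the members and these other pseudogenes was not tested.

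The calls rested partly on single libraries. With 1 library left out, 5 to 17 members were called lower. The count was 5 without R58Q replicate 3, 7 without vector replicate 2, 8 without vector replicate 3, 10 without R58Q replicate 2 and 11 without vector replicate 1. In all, 4 members were called in all fits run, RPL5P34, RPL7AP6 and RPS23P8 among them, while the other 17 calls each failed when at least 1 of the 6 libraries was dropped. With the floor of 10 counts put on the 3 R58Q libraries instead of the 6 others, 18 members were still called lower and the median was -0.43. Among the 12 members with at least 100 counts in all 6 vector and S136X libraries, 5 were called lower and the median was -0.44.

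**Figure D1:**
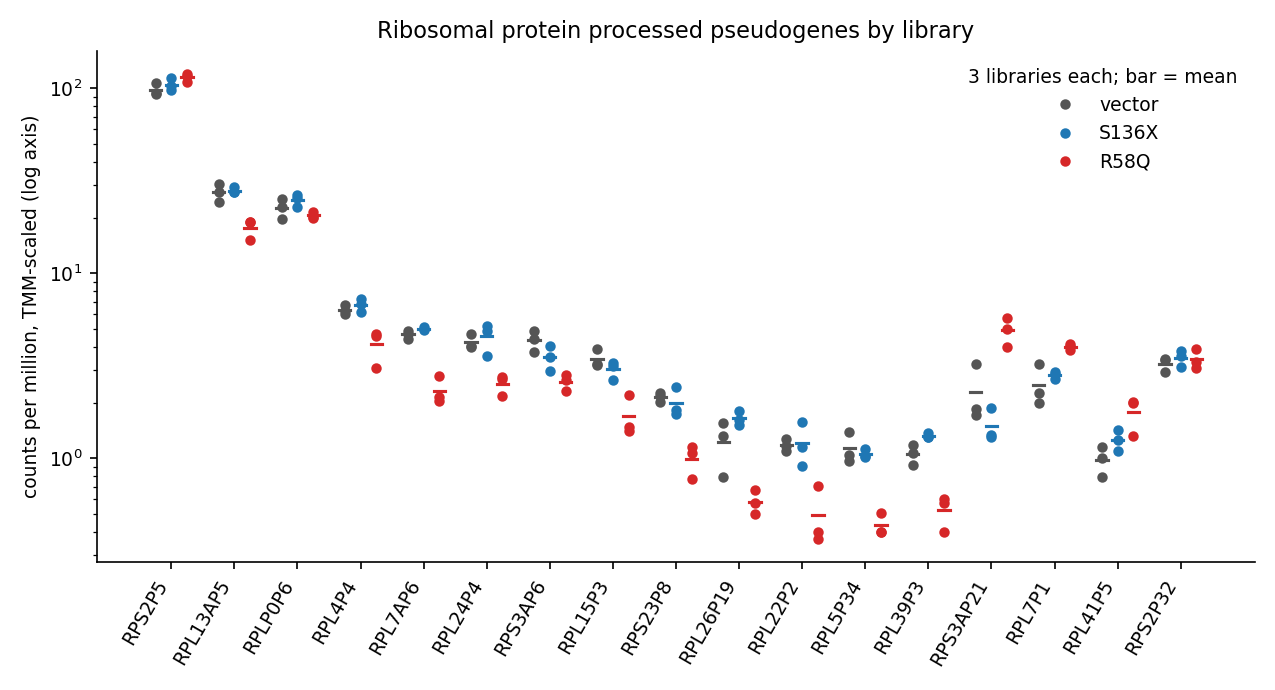
Level of 17 named members in each library, in TMM-scaled CPM on a log axis, with 3 libraries per group as points and the mean as a bar. RPS2P5 lies between 93.5 and 119.6 CPM, the members from RPL4P4 to RPL39P3 are lower in R58Q, and RPS3AP21 is higher in R58Q.

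RPL5P34 had the largest fall. It had 47, 34 and 33 counts in vector, 33, 33 and 29 in S136X, and 15, 12 and 13 in R58Q. The R58Q libraries lay below all others. Its log2 fold change against vector was -1.38 ± 0.27 (SE), with an adjusted p of 0.0105 (edgeR), while RPL5 was at 0.16.

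RPL22P2 is a copy of RPL22, a large-subunit protein that also binds small viral RNAs. It had 37, 38 and 43 counts in vector, 46, 37 and 26 in S136X, and 21, 11 and 13 in R58Q. Against vector it was at -1.26 ± 0.30 (SE) on the log2 scale, with an adjusted p of 0.0203 (edgeR), and RPL22 was at 0.01. The call was lost without vector replicate 2 or 3 or R58Q replicate 2 or 3. No 100-base window of RPL22P2 occurred in another gene.

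RPS23P8, a copy that covers 76.4% of the coding sequence of RPS23, a protein of the decoding centre, has no parental start codon. It had 76, 66 and 74 counts in vector, 71, 56 and 52 in S136X, and 34, 23 and 35 in R58Q. The R58Q libraries lay below all others, with a log2 fold change against vector of -1.11 ± 0.21 (SE) and an adjusted p of 0.00967 (edgeR). RPS23 was at 0.13.

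RPL7AP6, a copy of the large-subunit gene RPL7A with the full reading frame, had 165, 154 and 150 counts in vector, 144, 165 and 142 in S136X, and 83, 61 and 70 in R58Q. It fell by 1.01 ± 0.17 (SE) on the log2 scale, with an adjusted p of 0.00584 (edgeR). RPL13AP5, the second most abundant member, had 560, 569 and 494 counts in R58Q, below all vector and S136X libraries. On the log2 scale it was at -0.64 ± 0.12 (SE), with an adjusted p of 0.00883 (edgeR), and RPL13A was at 0.03. The call was lost without vector replicate 1 or R58Q replicate 3.

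The other members called lower were RPS3AP26, RPL26P19, RPL15P3, RPL39P3, RPSAP58, RPL7P9, RPS28P7, RPL24P4, RPS3AP6, RPL18AP3, RPS2P46 and RPL4P4. Their log2 fold changes ran from -1.10 in RPS3AP26 to -0.62 in RPL4P4. The calls of RPL18AP3, RPS28P7 and RPS2P46 were lost in all 6 fits with a library left out and with DESeq2. The RPS28P7 call was also lost with limma-voom, with no filter and with all 9 libraries in one fit. The RPS2P46 call was also lost with no filter. Those of RPL26P19 and RPL39P3 were lost in 5 of the 6 and with DESeq2, and that of RPL26P19 also with limma-voom. The remaining calls in this list were lost in 1 to 4 of the 6. RPL13AP25 passed the adjusted p, at 0.0454 (edgeR), but not the fold, at -0.45. With it, 19 members had an adjusted p under 0.05 and a lower level, against 8.76% of all genes.

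RPS3AP21 moved the other way. It had 58, 106 and 63 counts in vector, 55, 43 and 37 in S136X, and 171, 150 and 130 in R58Q, and the R58Q libraries were above all others. Its log2 fold change against vector was 1.11 ± 0.27 (SE), with an adjusted p of 0.0218 (edgeR), and the call was lost without vector replicate 3 or R58Q replicate 2. The parent RPS3A was at -0.11, with an adjusted p of 0.634 (edgeR). Of its 100-base windows, 13.8% occurred in another gene. Of the other copies of RPS3A, RPS3AP6 and RPS3AP26 fell by 0.75 and by 1.10 on the log2 scale, and RPS3AP47 was at 0.38 without passing the test.

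RPL7P1, a copy of the large-subunit gene RPL7, had 67, 106 and 77 counts in vector, 79, 92 and 83 in S136X. All R58Q libraries had 114 counts or more and lay above the others. The log2 fold change was 0.68 ± 0.20 (SE), with an adjusted p of 0.0455 (edgeR). RPL41P5 had 34, 26 and 39 counts in vector, 32, 46 and 36 in S136X, and 59, 60 and 43 in R58Q, with a log2 fold change of 0.84 ± 0.25 (SE) and an adjusted p of 0.0473 (edgeR). Both calls were lost with TMM factors from protein-coding genes, with upper-quartile factors and with total counts alone, that of RPL41P5 also with DESeq2 and limma-voom, and each failed in 5 of 6 fits with a library left out. RPL7P9, another copy of RPL7, fell by 0.83 on the log2 scale.

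RPS2P5 and RPLP0P6, the first and the third in level, did not pass the call. RPS2P5 had 3458, 3580 and 3531 counts in R58Q. In TMM-scaled CPM these were 108 to 119.6, above the vector libraries at 93.5 to 106.3, and overlapped with S136X. Its log2 fold change against vector was 0.22, with an adjusted p of 0.0566 (edgeR). RPLP0P6 had 845, 641 and 772 counts in vector, 747, 851 and 647 in S136X, and 600, 642 and 653 in R58Q. It was at -0.13 against vector, with an adjusted p of 0.393 (edgeR). RPS2P32, a more distant copy of RPS2, was at 0.08.

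**Figure D2:**
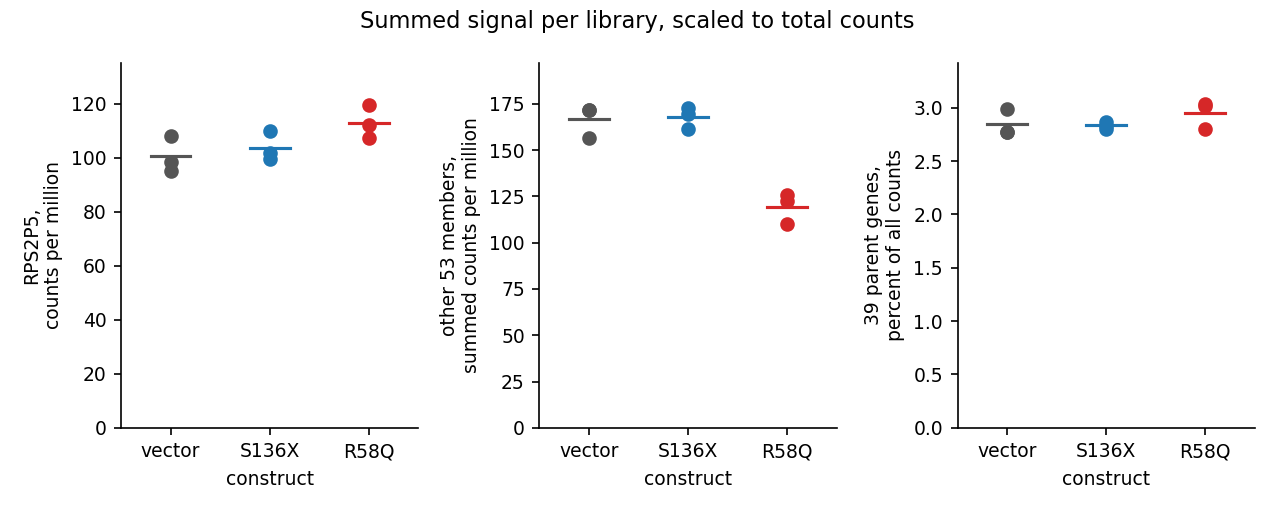
Counts of RPS2P5 and summed counts of the other 53 members, both as CPM of total counts, and counts of the 39 parents as a percent of all counts, with 1 point per library and the mean as a bar. The sum of the 53 members is 110.3 to 125.5 in R58Q and 156.8 to 172.8 in vector and S136X, while RPS2P5 and the parents overlap between groups.

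Because of RPS2P5, the sum over all members moved less than its parts. The share of RPS2P5 in member counts was 36.4% to 39.3% in the vector and S136X libraries and 47.2% to 49.4% in R58Q. Without it, the members summed to 171.4, 156.8 and 171.5 CPM of total counts in vector, 169.3, 172.8 and 161.3 in S136X, and 125.5, 122.5 and 110.3 in R58Q. As a percent of the parents' counts, all members made up 0.909% to 0.974% in vector, 0.909% to 0.995% in S136X and 0.778% to 0.795% in R58Q. The parents took 2.77% to 2.99% of all counts in vector and 2.80% to 3.04% in R58Q, and overlapped. These sums are descriptions without a test.

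Each member was next compared with its own parent by the difference in the log2 ratio of pseudogene to parent counts, tested with limma over all processed pseudogenes with a named protein-coding parent. Between S136X and vector, 0 of 54 members had an adjusted p under 0.05 in either direction, against 0.529% lower and 0.265% higher of 378 pairs. The members were chosen on these libraries, so this count is a description. In R58Q against vector, the ratio was lower in 30 of 53 members and higher in 4, with a median difference of -0.71. Of all 339 pairs, 34.2% were lower and 3.83% higher. In R58Q against S136X, it was lower in 34 of 54 and higher in 3, against 33.6% and 3.03% of 330 pairs, with a median of -0.69. For the members, the floor of the rule held for vector and S136X and not for R58Q. Of 177 other processed pseudogenes with the same floor, 63 were lower and 3 higher against vector, with a median of -0.50. Against S136X, 61 of these 177 were lower and 4 higher, with a median of -0.44. The members' share of lower ratios stood above that of all pairs, which include the members, in both R58Q comparisons. The difference from all pairs or from the other pseudogenes was not tested.

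**Figure D3:**
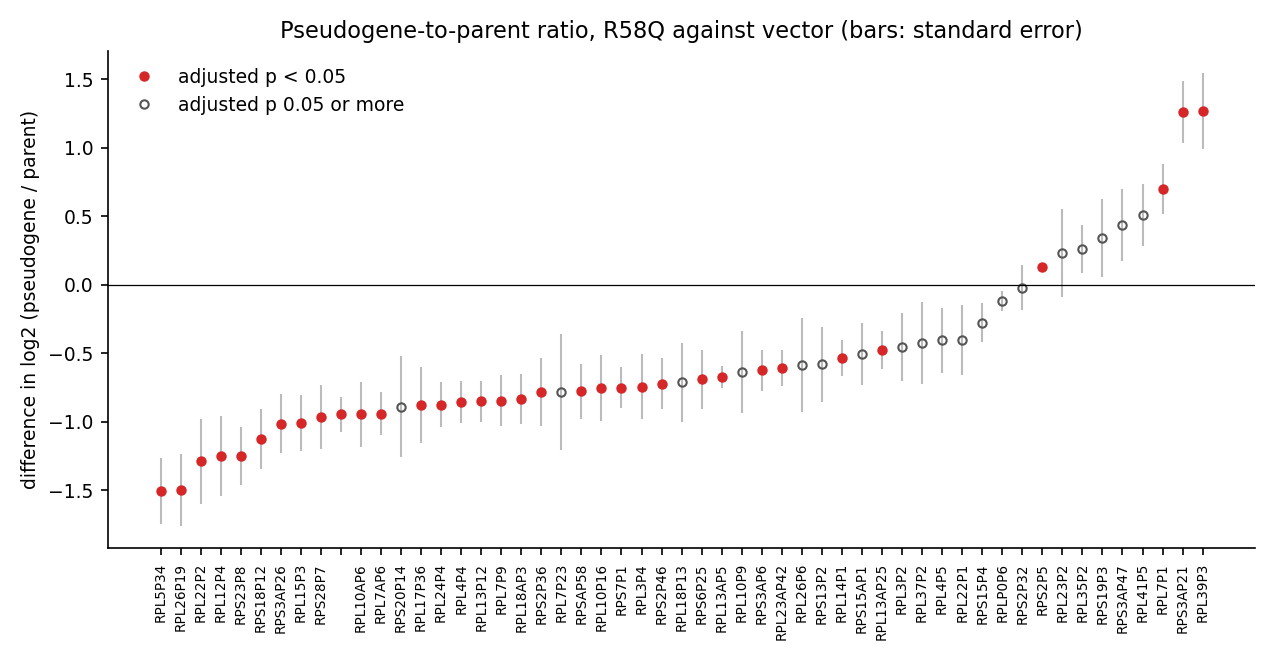
Difference in the log2 ratio of pseudogene to parent counts, R58Q against vector, for each of the 53 members tested, with its standard error. Filled points have an adjusted p under 0.05, which holds for 30 below 0 and 4 above 0, and 1 point carries no name.

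The 8 smallest adjusted p-values among lower ratios in R58Q against vector included those of RPL13AP5, RPL5P34, RPL7AP6, RPS23P8, RPL13P12, RPL26P19 and RPL4P4. In RPL13AP5, the vector libraries had 1.26% ± 0.0967 of the parent's reads on the pseudogene, the S136X libraries 1.31% ± 0.0355 and the R58Q libraries 0.788% ± 0.0711 (SD, n = 3 each). In RPL26P19 it was 5.85% ± 1.65, 6.79% ± 0.476 and 1.99% ± 0.275 (SD, n = 3 each). RPL26, a large-subunit protein, itself rose by 0.50 on the log2 scale, with an adjusted p of 0.0071 (edgeR), and its copy fell. RPL13P12, a copy of the large-subunit gene RPL13, did not pass the single-gene test, at -0.43, while its ratio differed by -0.85 and RPL13 was at 0.42.

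RPL39P3 had the largest rise in ratio, and its count fell. It had 31, 35 and 40 counts in vector, 38, 42 and 39 in S136X, and 17, 18 and 13 in R58Q, a log2 fold change of -1.01 ± 0.26 (SE) with an adjusted p of 0.0291 (edgeR). RPL39 had 1041, 1122 and 911 counts in vector, 885, 971 and 917 in S136X, and 198, 170 and 217 in R58Q. It fell by 2.28 on the log2 scale, with an adjusted p of 3.71e-05 (edgeR). The copy's reads were 3.50% ± 0.778 of the parent's in vector and 8.39% ± 2.31 in R58Q (SD, n = 3 each), a ratio difference of 1.27 with an adjusted p of 0.0033 (limma). The call of RPL39P3 itself was lost with DESeq2 and in 5 of 6 fits with a library left out. All 57 of the copy's 100-base windows also occur in RPL39, so reads of the 2 cannot be told apart by sequence within the copy.

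The other higher ratios against vector were those of RPS3AP21, RPL7P1 and RPS2P5. In RPS3AP21 the difference was 1.26, with an adjusted p of 0.000896 (limma). In RPL7P1 it was 0.70 and in RPS2P5 0.13. Relative to RPS2 reads, RPS2P5 was at 7.84% ± 0.174 with vector, 7.81% ± 0.529 with S136X and 8.57% ± 0.181 with R58Q (SD, n = 3 each).

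**Figure D4:**
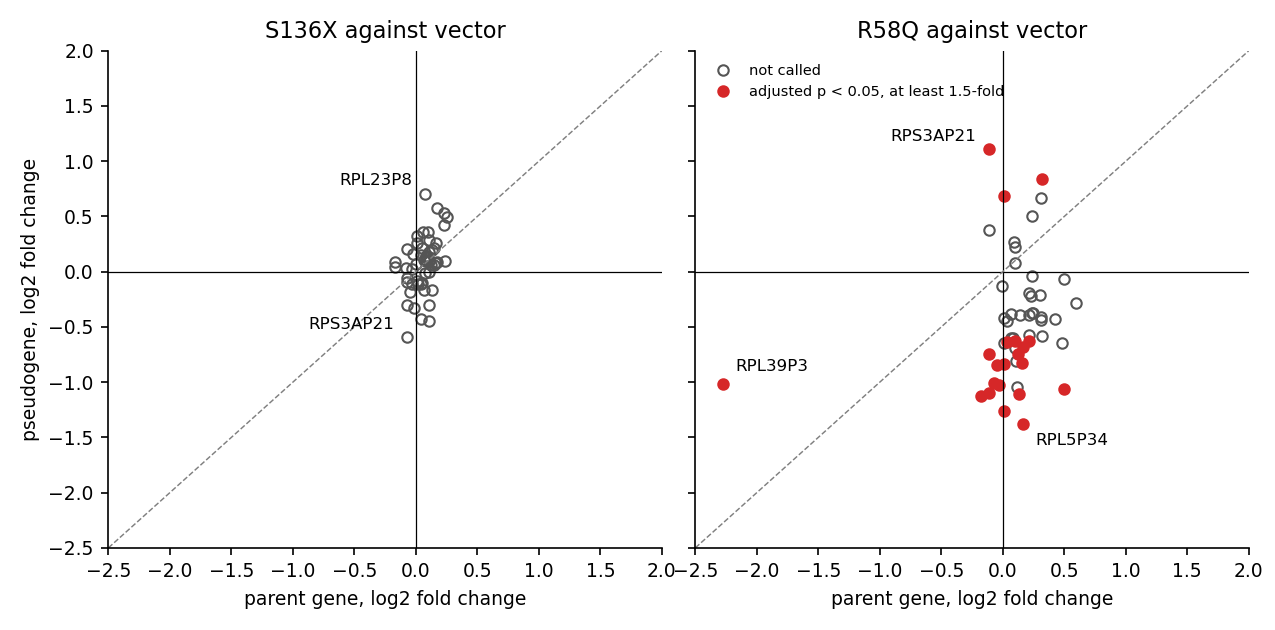
Log2 fold change of each member (vertical axis) against that of its parent (horizontal axis), for S136X against vector on the left and R58Q against vector on the right. The dashed line marks equal change. Filled points passed the call, 0 on the left and 21 on the right, where 44 of 53 members lie below the line.

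R58Q and S136X were compared directly, since both groups carry an induced BCL10 mutant. Fewer genes passed in this comparison. Of 54 members, 4 were called lower, RPL13AP5, RPL7AP6 and RPL26P19 among them, and RPS3AP21 was called higher (edgeR's quasi-likelihood test), against 0.165% lower and 0.27% higher of all genes. The median log2 fold change was -0.60, and 45 members were below 0, against 49.3% of all genes. The 290 processed pseudogenes of other families with the same floor had a median of -0.41, and the difference was not tested. In 33 members the R58Q libraries lay below all S136X libraries, against 8.42% of all genes. Both comparisons of R58Q share the R58Q libraries.

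RPL13AP5 was at -0.68 ± 0.10 (SE) against S136X, with an adjusted p of 0.0388 (edgeR), and RPL7AP6 at -1.12 ± 0.17 (SE), with an adjusted p of 0.0387 (edgeR). RPL26P19 had 52, 26 and 45 counts in vector, 53, 52 and 43 in S136X, and 17, 15 and 22 in R58Q, and was at -1.50 ± 0.22 (SE) against S136X, with an adjusted p of 0.0373 (edgeR). RPS3AP21 was at 1.70 ± 0.22 (SE), with an adjusted p of 0.022 (edgeR).

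These calls depended on the design. With the replicate number as a block, 21 members were called lower, against 1.58% of all genes, and 1 higher, against 1.36%, and all 5 calls without the block were among them. With 1 library left out, 0 to 2 members were called lower and 0 or 1 higher. No member was called lower without S136X replicate 1, 2 or 3 or R58Q replicate 3, 2 were without R58Q replicate 1 and 1 was without R58Q replicate 2. The ratio to the parent was lower in 25 to 29 members with 1 library left out.

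The members were next grouped by the sequence they share with other genes. Of the 13 members with no exactly shared 100-base window, 10 were below 0 in R58Q against vector, with a median of -0.41. Of these 13, 1, RPL22P2, was called lower. An unadjusted p under 0.05 (edgeR) was reached by 5 of the 13. Among the 13, RPL18P13, RPL23P2, RPL26P6, RPL37P2, RPS19P3 and RPS20P14 had lowest counts of 10 to 13 in the 6 libraries of the rule. Such low counts limit what can be called. Against S136X, 11 of the 13 were below 0, with a median of -0.29 beside -0.60 for all members, and 0 were called by edgeR, DESeq2 or limma-voom, with 4 at an unadjusted p under 0.05. The part of shared sequence in the lower counts was not tested. Without the 12 members that share over 50% of their windows, 11 members were called lower and the median was -0.44. Of 17 members at least 99% identical to the parent, 10 were called lower and 2 higher, with a median of -0.68. Of 22 members at 97% to 99%, 5 were called lower and 1 higher, with a median of -0.44, and of 14 members under 97%, 3 were called lower and 0 higher, with a median of -0.40. Across the 53 members, identity and log2 fold change had a Spearman rho of -0.19. The points share libraries and parents, so no test is given.

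**Figure D5:**
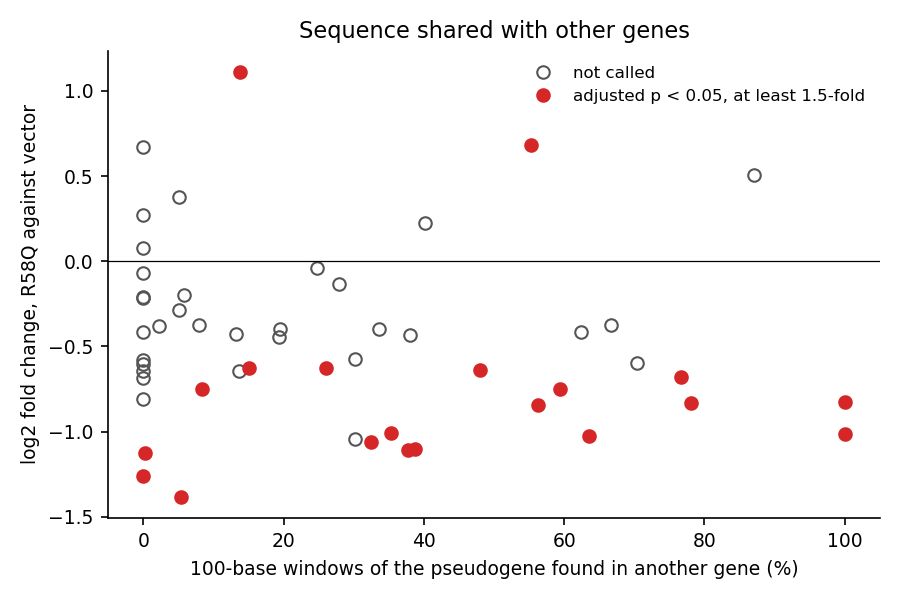
Log2 fold change in R58Q against vector for each member with 100-base windows (vertical axis) against the percent of its windows that occur in another annotated gene (horizontal axis). Filled points passed the call. Members below 0 are spread from 0% to 100%, and RPS3AP21, the highest point, is at 13.8%.

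Members were also grouped by reading frame and position. Of 23 members with the full reading frame, 20 were below 0 in R58Q against vector, and of the other 30 tested, 24 were. The other 30 include copies with a frame longer than the parent's. The median was -0.58 for 25 members between genes, -0.60 for 13 in an intron of the same strand and -0.41 for 14 opposite another gene. Of the 7 transcribed ribosomal protein processed pseudogenes with the same floor, a separate annotation class that the rule leaves out, RPS27AP16 and RPL6P27 had an adjusted p under 0.05, and both were lower.

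At the floor, RPL10P9, RPL23P2, RPL23P8 and RPL7P23 had a lowest count of 10 in the 6 libraries of the rule, and RPL21P16, RPL5P1 and RPS4XP1, just outside, had 9. RPL23P2 had 12, 11 and 21 counts in vector and 16, 14 and 19 in R58Q, and RPL7P23 had 19, 14 and 18 in vector and 4, 14 and 12 in R58Q. The low counts limit what can be seen in such members. Of the 12 tested members with a lowest count under 20, 0 were called against vector by edgeR, DESeq2 or limma-voom, and 0 had an unadjusted p under 0.05.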

How the data were processed

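RNA-seq libraries of RIVA cells (3 each of vector, S136X and R58Q) were analysed from 1 table. The authors deposited raw read counts per gene and, beside them, normalized signal columns, which were not used. Per the labels, mRNA libraries were made with a Nugen kit and 2 runs were combined. The submitters' processing notes name cutadapt, STAR, Picard and hg38. The counting program, its handling of reads that map to several places, its strand setting and the annotation release are not given in the sources used here, and such handling decides how reads are split between a parent and its copies. 0 numeric columns lacked a sample.

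Counts were filtered with filterByExpr (minimum 10 counts, total 15), scaled by TMM and tested with edgeR 4.0.16 by quasi-likelihood, each comparison on its own 6 libraries, with Benjamini-Hochberg adjustment over all genes tested. Calls required a 1.5-fold change or more besides an adjusted p under 0.05. The SE of an edgeR log2 fold change was obtained by dividing its absolute value by the square root of the quasi-likelihood F statistic. Log2 ratios of pseudogene to parent counts (0.5 added) were tested with limma 3.58.1. On simulated counts for R58Q against vector (15435 genes), edgeR recovered 78% of 200 genes changed 2-fold, with 9 false calls. The ratio test recovered 15 of 34 ratios changed by a fold of 0.5 among 313 pairs. DESeq2 1.42.0 and limma-voom were alternatives. Members were aligned to the parent's principal transcript in GENCODE 29 with Biopython.

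The members, gene lists and tests were chosen with earlier results of these data known. Named genes were the 10 members with the highest mean CPM, up to 5 called members per direction, the 5 highest and 5 lowest shares of parent reads, up to 8 members by p in the ratio test, the members at the floor, and those with the most and fewest windows of their own, each with its parent. Other genes and values named, such as the further members called lower in R58Q against vector, RPS2P32 and the transcribed pseudogenes, were chosen after their values were seen.

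Counts of replicate pairs gave chi-square values of 7.91 to 25.6 per degree of freedom, above sampling noise, and each library was kept as its own sample. Libraries with the same replicate number deviated together from their group means (9 correlations, 0.22 to 0.765), and those with different numbers did so less (18 correlations, -0.576 to 0.214), so the numbers were taken to pair the libraries from the data, and fits with the replicate number as a block were run. The labels do not say that the libraries came from separate cultures, so p-values measure the spread between these libraries. The values of 1 member that entered all counts, and some sequences, are not reported here.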

Additional observations from a re-analysis of the deposited data

Results flagged for a closer look

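Set directly against S136X, R58Q differed in some members: 5 members and 1 parent passed edgeR's test of the difference between these 2 groups. The log2 fold changes of R58Q against S136X included -0.68 for RPL13AP5, -1.12 for RPL7AP6, 1.70 for RPS3AP21, -1.50 for RPL26P19 and -2.29 for RPL39. The R58Q libraries also carry a later date than the S136X libraries, and the construct and the date cannot be told apart. None of the 5 member calls held in all 6 fits with a library left out, and those of RPL13AP5 and RPL26P19 were lost in all 6. Groups of 3 libraries were not tested for single libraries that stand apart.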

How the results depend on the processing

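No call of a member changed direction under any alternative. In R58Q against vector, 1 member was called higher with TMM factors from protein-coding genes, with upper-quartile factors and with total counts only. The median of the members was -0.42 with a floor of 5 counts, -0.45 without members inside another gene on the same strand, and -0.43 with the floor on the R58Q libraries (chosen after seeing the data). Without members with over 50% of windows elsewhere, 11 were called lower and the median was -0.44. With 1 library left out, 5 to 17 were called lower and 0 to 2 higher, with medians of -0.55 to -0.48. In R58Q against S136X, 8 were called lower with DESeq2, 7 with no filter, 9 with all 9 libraries in one fit and 21 with the replicate block, and the median was -0.50 with a floor of 5 counts. With 1 library left out, 0 to 2 were called lower and 0 to 1 higher, and the ratio medians ran from -0.76 to -0.65. In S136X against vector, the median difference in log2 pseudogene-to-parent ratio ran from -0.0446 (without vector replicate 1, a change of sign) to 0.0938 with 1 library left out. The median percent of member windows found elsewhere was 33.4% with windows of 75 bases and 55.1% with 50. The replicate block moved no other count by over 1.5 times. The causes were not tested, except that leaving out a library leaves fewer samples.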
